A study of Mus musculus with 17 samples.

Results

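The choroid plexus and ependymal genes are 34 marker genes, of 45147 features counted in these brain libraries. They were listed by name from cell biology and not ranked by measured values, but with earlier results of these data known. Of these, 26 mark the choroid plexus epithelium and 8 mark the ependymal lining of the ventricles. All groups were brain RNA from mice of C57BL/6 strain background. In the 6 transgene libraries the mice overexpressed HAR1A, a human long noncoding RNA, and the 11 control libraries came from normal mice without it. The labels leave out the promoter of the transgene, the number of founder lines, the part of the brain, and the age and sex of the mice. They also do not say that each library came from its own animal, and the p-values rest on variation among libraries, part of which may be technical. Levels of HAR1A itself were not analysed here. All transgene libraries were sequenced on lane 4 of 1 flow cell, together with 3 of the controls, and the other 8 controls ran on other lanes or on another flow cell.

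The choroid plexus is a folded epithelium inside the brain ventricles that secretes the cerebrospinal fluid. It exports transthyretin, moves ions and water through channels and transporters, and seals the blood side from the fluid side with tight junctions. Ependymal cells line the ventricle walls next to it and move the fluid with motile cilia, whose genes are switched on by the transcription factor Foxj1. In bulk RNA, fewer cells of a type and less RNA per cell cannot be told apart.

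Each library held 17067407 to 22642441 counts assigned to features. Levels are given in CPM, the count of a gene scaled to a common total of assigned counts, with TMM (trimmed mean of M values) factors. Of the 34 genes, 29 had enough counts to be tested, 22 of the choroid and 7 of the ependymal genes. The other 5 had too few counts: Folr1, a folate receptor, ranged from 0 to 0.408 CPM over all libraries, the bicarbonate transporter Slc4a5 from 0 to 0.697, the calmodulin-like gene Calml4 from 0 to 0.907, the osmosensitive channel Trpv4 from 0 to 0.326 and the secreted-protein gene Mia from 0 to 0.153. Each had several deposited transcript rows (Folr1 5, Slc4a5 3, Calml4 6, Trpv4 5 and Mia 2). Genes with overlapping transcripts lose reads as ambiguous, so few counts need not mean little RNA. All 34 were counted in at least 1 control and 1 transgene library, so RNA of every marker was present in both groups. Per kilobase of exon, Ttr stood far above every other gene of the set, with a control median of 1376 CPM per kb, followed by Enpp2 with 33.96, Igfbp2 with 19.5, Foxj1 with 17.6 and Clic6 with 12.2. The lowest tested gene on this scale was Rarres2 with 0.173 CPM per kb, on 4 deposited rows. The loss of ambiguous reads limits comparison between genes on this scale.

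The choroid signal differed more between libraries than between groups. Ttr (transthyretin, mm10 chromosome 18, 20665280 to 20674321), the thyroid hormone carrier of the cerebrospinal fluid, had a lowest, median and highest level of 43.3, 1632 and 3785 CPM in the 11 controls. In the 6 transgene libraries the values were 2.83, 3.49, 717, 928, 1323 and 1719 CPM. Transgene 2 and transgene 6 thus held almost no Ttr RNA, control 3 held 43.3 CPM and control 7 held 340 CPM, and no other library was below 717 CPM. Control 6 and control 9 were the highest, at 3785 and 3722 CPM.

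The same 4 libraries were low in most of the choroid epithelium. Kl, the antiageing factor klotho, had 6.02 CPM in control 3, 16.7 in control 7, 5.01 in transgene 2 and 11.7 in transgene 6, against 36.3 to 122 CPM in the other 13 libraries. Cldn2, the pore-forming claudin of leaky epithelia, had 0.938, 1.13, 0.248 and 0.241 CPM in these libraries and 4.09 to 16.7 in the others. Kcne2 (mm10 chromosome 16, 92292389 to 92298129), a potassium channel subunit, had 0.0552, 0.0903, 0 and 0 CPM there, which is 1, 2, 0 and 0 counts. Control 7 was not low throughout: the prolactin receptor gene Prlr stood at 21.9 CPM there, above the control median of 15.1, and the claudin gene Cldn3 at 2.26 CPM, the highest of the controls.

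The 4 libraries did not stand apart in depth, and other brain cell types were present in them. Their assigned counts were 17067407, 22642441, 22048107 and 18951831, the lowest and the highest of the series among them. The 6 neuron markers held 0.485% and 0.601% of assigned counts in controls 3 and 7 and 0.521% and 0.495% in transgene 2 and 6, against 0.407% to 0.524% in the other 13 libraries, so control 7 was the highest. The 6 oligodendrocyte markers held 0.127% and 0.486% in controls 3 and 7 and 0.128% and 0.0923% in transgene 2 and 6, against 0.112% to 0.360% in the others, so control 7 was the highest and transgene 6 the lowest. Their part in the results was not tested. Several results below are given with and without these 4 libraries. Since they were picked by their Ttr, p-values without them are not a fair test of Ttr or of genes that go with it.

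**Figure D1:**
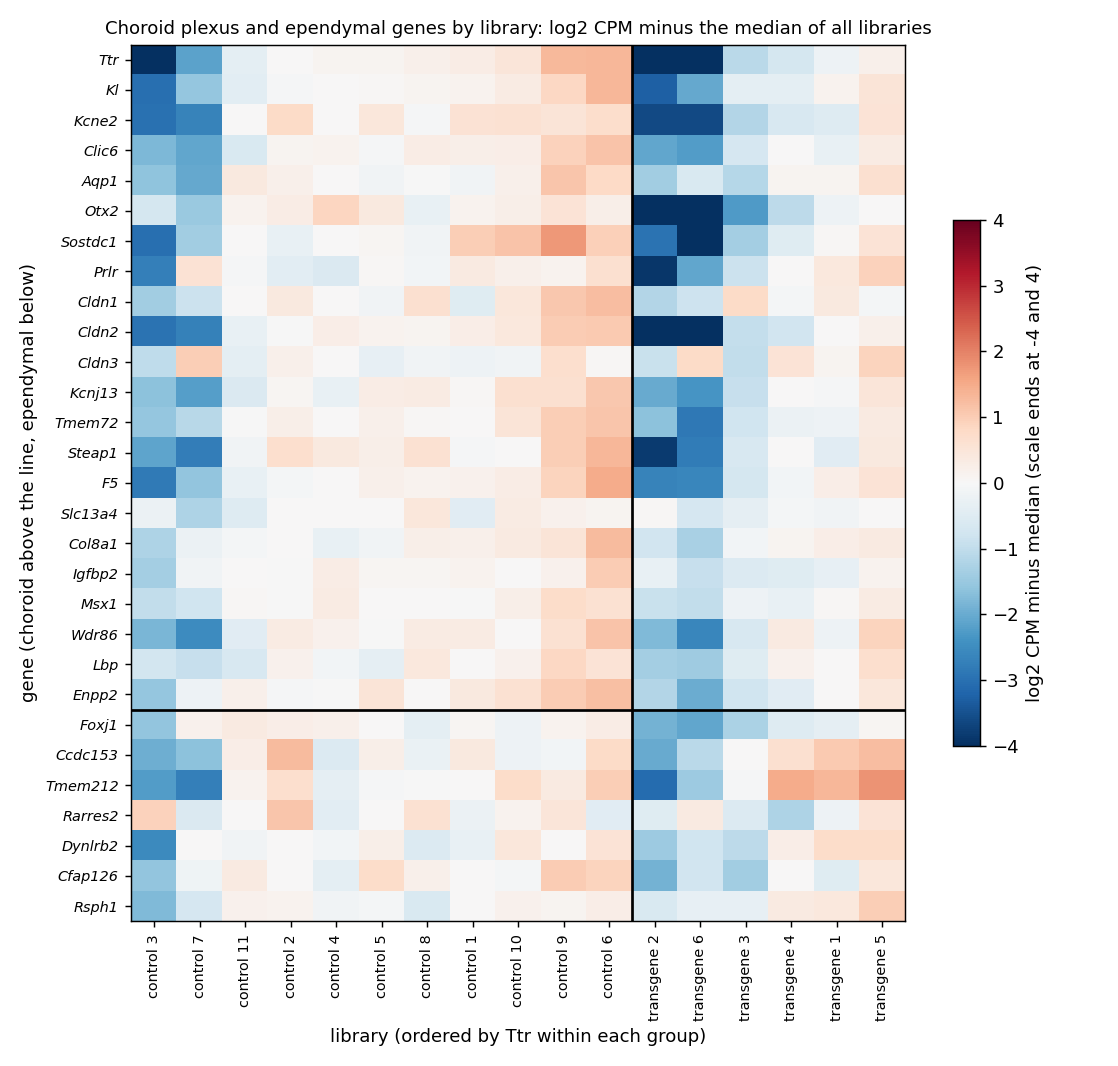
Heat map of the 29 tested choroid plexus and ependymal genes (rows) in 17 libraries (columns, ordered by Ttr within the 11 controls and the 6 transgene libraries). Colour is log2 CPM minus the gene's median over all libraries; control 3, control 7, transgene 2 and transgene 6 are blue in most choroid rows, while Foxj1 in control 7 is not.

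The first question was whether brains with the transgene differ from normal brains in these genes. Over all libraries 2 of the 29 tested genes fell, the transcription factors Otx2 and Foxj1, and 0 rose (edgeR quasi-likelihood test, Benjamini-Hochberg adjusted p under 0.05 over 19136 features). Among all features 47.4% were called, 24.4% lower and 23% higher. At an unadjusted p under 0.05, 4 genes were lower and 0 higher, and DESeq2 and limma-voom also called 0 higher. The log2 difference was below 0 for 24 of the 29 genes, with a median of -0.51, against a median of -0.05 over all tested features. For all 34 genes the ranges of the groups overlapped, while the ranges did not overlap for 14.8% of the tested features, with the transgene libraries lower in 4.19% and higher in 10.6%.

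**Figure D2:**
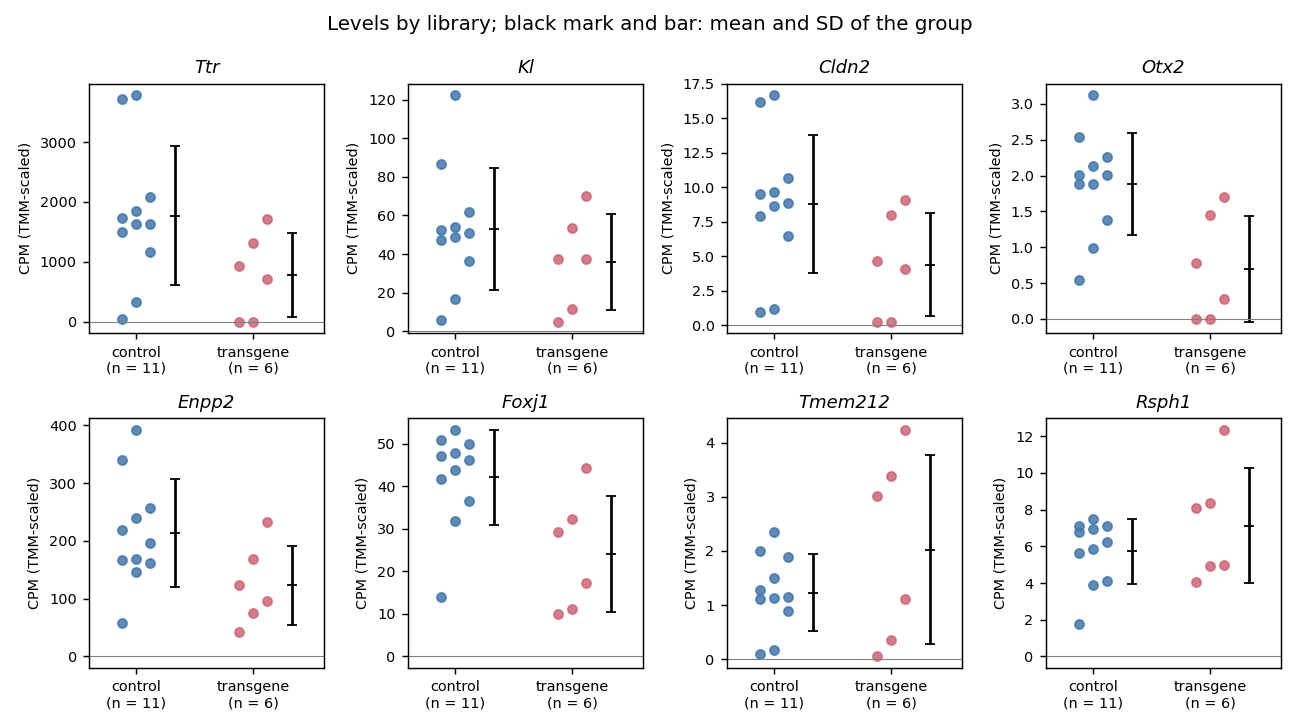
Level in CPM (vertical axis, TMM-scaled) of 8 genes in the 11 control and 6 transgene libraries, 1 point per library, with the mean and SD of each group in black. The groups overlap for every gene shown, and the transgene libraries of Tmem212 span 0.0496 to 4.24 CPM.

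Among the secreted products, none passed the test. Ttr averaged 782 ± 694 CPM in transgene (SD, n = 6) and 1773 ± 1161 CPM in control libraries (n = 11), a log2 difference of -1.20 ± 0.93 (SE, edgeR adjusted p = 0.307). As a share of assigned counts, Ttr took 0.0752% ± 0.0672 in transgene and 0.186% ± 0.126 in control libraries, with an exact two-sided permutation p of 0.0495. Within lane 4 the shares were 0.0752% ± 0.0672 (n = 6) and 0.111% ± 0.0724 (n = 3), with an exact permutation p of 0.5. The 2 tests of Ttr over all libraries thus fell on different sides of the threshold, and the difference within the lane was smaller than the spread between libraries.

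Enpp2, the secreted lipid enzyme autotaxin, had 57.2, 196 and 393 CPM as its lowest, median and highest control values and 42.4, 110.2 and 233 CPM in transgene libraries. Its log2 difference was -0.82 ± 0.35 (edgeR adjusted p = 0.0609). Igfbp2, a binding protein for insulin-like growth factors, had 13.2, 35.9 and 68.4 CPM in controls and 17.9, 25.9 and 37.1 CPM in transgene libraries, a log2 difference of -0.51 ± 0.22 (adjusted p = 0.0607). Both lie just outside the threshold, and both passed it in DESeq2 and with scaling by library size alone. Sostdc1, an inhibitor of BMP and Wnt signals, had 1.27, 11.2 and 36.5 CPM in controls and 0.361, 6.01 and 16.1 CPM in transgene libraries, with a log2 difference of -1.12 ± 0.62 (adjusted p = 0.146). The coagulation factor gene F5, the lipopolysaccharide-binding protein gene Lbp, the short-chain collagen gene Col8a1 and Kl did not pass either, with adjusted p between 0.343 and 0.505 by edgeR.

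The transporters and channels gave the same picture of wide spread within each group. Kcne2 had 0.0552, 1.56 and 1.99 CPM as lowest, median and highest control values and 0, 0.564 and 1.70 CPM in transgene libraries, a log2 difference of -1.09 ± 0.65 (edgeR adjusted p = 0.178). The chloride channel gene Clic6 had 10.1, 47.9 and 94.3 CPM in controls and 9.03, 30.7 and 54.3 CPM in transgene libraries. Kcnj13, an inward rectifier potassium channel, had 2.35, 11.8 and 24.1 CPM in controls and 2.11, 8.36 and 15.6 CPM in transgene libraries. In both genes the lowest control, control 7, lay close to the lowest transgene library, transgene 6. The water channel gene Aqp1 reached 2.30 to 21.5 CPM in controls and 3.67 to 15.6 CPM in transgene libraries. The sulfate transporter gene Slc13a4 was the steadiest of the group, at 13.4 to 44.2 CPM in controls and 19.98 to 33.3 CPM in transgene libraries. Steap1, a metalloreductase, ran from 0.316 to 6.93 CPM in controls and from 0.0993 to 3.53 CPM in transgene libraries, with a log2 difference of -0.94 ± 0.56 (adjusted p = 0.181).

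Slc4a5, the sodium bicarbonate cotransporter that takes part in fluid secretion, was too low for the main test but was the gene with the most separate groups. Its 11 controls held 0.0552, 0.314 and 0.697 CPM as lowest, median and highest values, and the transgene libraries held 0, 0, 0, 0.0538, 0.0553 and 0.0943 CPM. These rest on 1 to 16 counts per control and on 0 to 2 counts per transgene library. Control 3 alone fell inside the transgene range. Within lane 4 the 3 controls (0.295, 0.406 and 0.408 CPM) lay above all 6 transgene libraries. Such a gap was found for 25.1% of the features tested in the lane, with the transgene libraries lower in 9.27%. With no filter on low counts, edgeR called Slc4a5 lower over all libraries and within lane 4.

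Among the tight junction genes, Cldn2 had 0.938, 8.84 and 16.7 CPM as lowest, median and highest control values and 0.241, 4.38 and 9.10 CPM in transgene libraries, a log2 difference of -1.02 ± 0.62 (edgeR adjusted p = 0.188). Cldn1 ran from 1.77 to 11.5 CPM in controls and from 2.09 to 8.30 CPM in transgene libraries. Cldn3 ran from 0.497 to 2.26 CPM in controls and from 0.498 to 2.12 CPM in transgene libraries, and it was the only tested choroid gene whose log2 difference lay above 0. The membrane protein gene Tmem72 had 8.50, 25.9 and 53.7 CPM in controls and 3.37, 17.7 and 32.1 CPM in transgene libraries, with a log2 difference of -0.81 ± 0.40 (adjusted p = 0.106). Prlr, the receptor through which prolactin acts on the plexus, ran from 2.10 to 22.8 CPM in controls and from 0.894 to 28.0 CPM in transgene libraries, so the highest value lay in the transgene group. The WD-repeat gene Wdr86 ran from 0.587 to 8.54 CPM in controls and from 0.542 to 7.16 CPM in transgene libraries.

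Otx2 (mm10 chromosome 14, 48657677 to 48673819), the homeobox factor needed to form and keep the choroid plexus, fell in the transgene libraries. Controls had 0.542, 2.004 and 3.12 CPM as lowest, median and highest values. The transgene libraries had 0, 0, 0.277, 0.777, 1.45 and 1.70 CPM, so all of them lay below the control median, 3 reached into the control range, and transgene 2 and 6 had no count. The log2 difference was -1.42 ± 0.55 (edgeR adjusted p = 0.0398). The call was lost with 11 of the 17 libraries left out 1 at a time (log2 differences of -1.89 to -1.14, adjusted p up to 0.0927), among them transgene 2 and transgene 3. It was lost also with the most counted row in place of the sum of rows (-1.20, adjusted p = 0.0874), with no filter on low counts (-1.40, adjusted p = 0.0513) and with lane and flow cell in the model (-0.85, adjusted p = 0.436). In that last fit the group difference rests on lane 4, because the other lanes held controls alone. It is thus not a check separate from the comparison within lane 4. Without the 4 libraries lowest in Ttr, left out by a gene that it rose with, Otx2 was called at -1.02 ± 0.33 (adjusted p = 0.0202). Msx1, a homeobox factor of the dorsal midline, had 8.22 to 27.6 CPM in controls and 8.37 to 20.5 CPM in transgene libraries and did not pass (adjusted p = 0.194). Otx2 overlaps the antisense transcript Otx2os1, and since the strand setting of the counting is not given in the sources used here, reads of these genes cannot be told apart.

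Foxj1 (mm10 chromosome 11, 116330704 to 116335399) also fell. It had 14.0, 46.1 and 53.2 CPM as lowest, median and highest control values and 9.87, 11.2, 17.2, 29.4, 32.3 and 44.4 CPM in the transgene libraries. Control 3 lay among the low transgene libraries, and the 10 other controls, control 7 included, held 32.0 CPM or more. The log2 difference was -0.83 ± 0.30 (edgeR adjusted p = 0.0282). The call was lost without transgene 2, transgene 3 or transgene 6 (adjusted p up to 0.0788). It was lost also with lane and flow cell in the model, where the group difference again rests on lane 4 (-0.91, adjusted p = 0.114). Without the 4 libraries lowest in Ttr the log2 difference was -0.54 ± 0.19 (adjusted p = 0.0328).

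None of the other tested ependymal genes passed in this comparison, and their differences went both ways, above 0 for 4 of them and below 0 for Cfap126 and Rarres2. Tmem212 (mm10 chromosome 3, 27866066 to 27896368), a membrane protein gene of ciliated cells, had 0.0903, 1.15 and 2.35 CPM as lowest, median and highest control values and 0.0496, 0.361, 1.11, 3.01, 3.38 and 4.24 CPM in the transgene libraries, 3 of which exceeded every control. Its log2 difference was 0.70 ± 0.57 (edgeR adjusted p = 0.333). Rsph1, a radial spoke protein of the motile axoneme, had 1.77 to 7.49 CPM in controls and 4.07 to 12.3 CPM in transgene libraries, with a log2 difference of 0.29 ± 0.26 (adjusted p = 0.373). Ccdc153, a coiled-coil gene used as an ependymal marker, had 0.0552 to 1.32 CPM in controls and 0.0496 to 1.32 CPM in transgene libraries, with a log2 difference of 0.30 ± 0.52 (adjusted p = 0.66). Cfap126, a protein of basal bodies, had 0.331 to 2.50 CPM and 0.248 to 1.65 CPM, with a log2 difference of -0.78 ± 0.38 (adjusted p = 0.102), about the size of that of Foxj1, and it was called lower without control 3 and without transgene 5. Dynlrb2, a dynein light chain, had 0.110 to 1.70 CPM and 0.348 to 1.94 CPM. Rarres2, which encodes the secreted chemerin and has no part in cilia, had 0.271 to 1.09 CPM and 0.137 to 0.707 CPM.

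Within lane 4, where both groups shared a lane, 0 of the 29 tested genes passed in either direction (edgeR adjusted p), against 25.6% of 19261 features called, 13.6% higher and 12% lower. At an unadjusted p under 0.05 only Igfbp2 was lower, and DESeq2 and limma-voom also called 0 genes. The 3 controls of the lane held 340, 1162 and 1740 CPM of Ttr, and the log2 difference of Ttr was -0.50 ± 1.35 (adjusted p = 0.824). It ranged from -0.92 without control 7 to 0.017 without control 8. Foxj1 differed by -0.93 ± 0.43 (adjusted p = 0.139), close to its size over all libraries. Tmem212 differed by 1.27 ± 1.00 (adjusted p = 0.393) and Otx2 by -0.86 ± 0.92 (adjusted p = 0.539). The median over the tested genes was -0.12, against -0.04 over all features, and 8 of 29 values were above 0.

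Leaving out the 4 libraries lowest in Ttr changed the count over all libraries. With 9 controls and 4 transgene libraries, 7 of 30 tested genes were lower (Ttr, Otx2, Kcne2, Cldn2, Igfbp2, Foxj1 and Calml4) and 1, Tmem212, was higher. Among all features 3946 of 19576 were lower and 4269 (21.8%) higher, so the share of these genes called lower was near that of all features. Ttr then differed by -0.87 ± 0.32 (edgeR adjusted p = 0.0394), Cldn2 by -0.72 ± 0.27 (adjusted p = 0.0461) and Tmem212 by 0.98 ± 0.30 (adjusted p = 0.0161). The libraries were left out by their level of Ttr, which narrows the spread of Ttr and of genes that go with it. For these genes the p-values of this step are descriptive only. In lane 4 the same step left 2 controls and 4 transgene libraries, and 0 genes passed. With lane and flow cell in the model over all libraries, 0 genes passed by edgeR in either direction. In that fit 2871 of 19136 features were higher and 3016 lower, and the group difference rests on lane 4 alone.

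The second question was whether the ependymal genes follow the choroid genes across libraries. Ttr was taken as the measure of choroid RNA, and each gene was fitted on its log2 CPM with the group in the model, so that a slope of 1 stands for a level proportional to Ttr. A total of 21 of the 28 other tested genes rose with Ttr, 17 of 21 choroid genes and 4 of 7 ependymal genes, and 0 fell (edgeR adjusted p). Among all features 0.538% were called, 0.423% higher and 0.115% lower. The median slope was 0.30 over the choroid genes, 0.21 over the ependymal genes and -0.00 over all tested features.

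**Figure D3:**
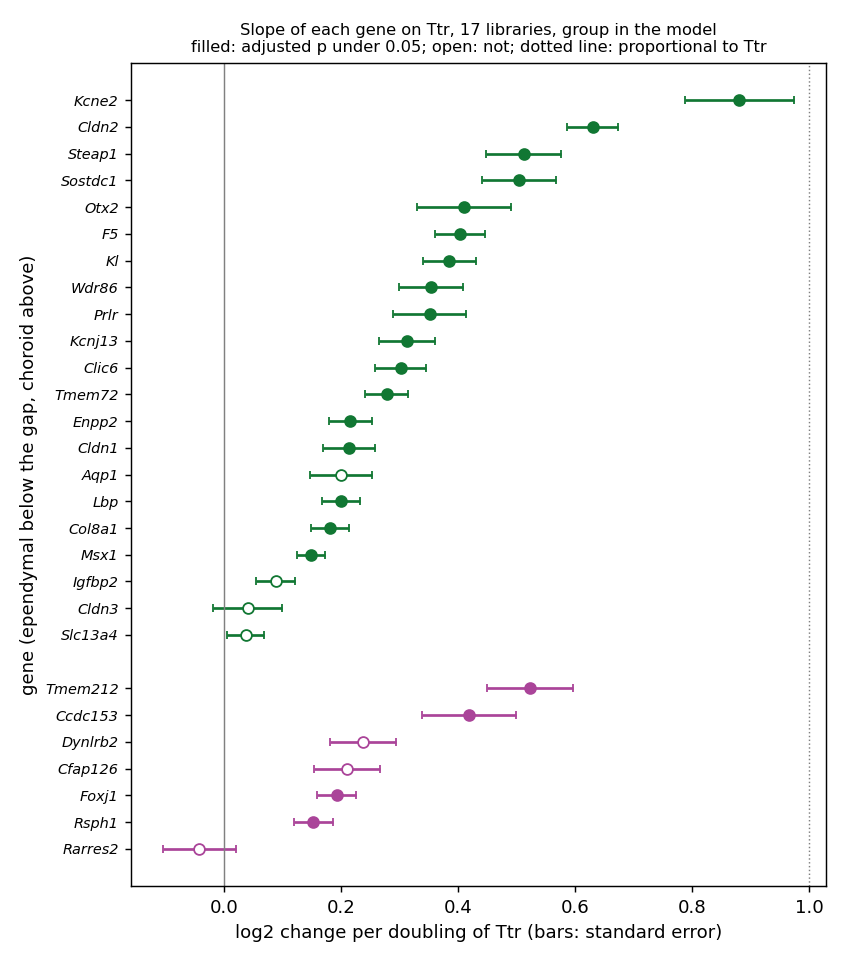
Slope of 28 genes on Ttr (horizontal axis, log2 change per doubling of Ttr, bars are standard errors) over 17 libraries with the group in the model. Choroid genes stand above the gap and ependymal genes below it, filled points passed the test, and only Rarres2 lies below 0, at -0.04.

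The choroid genes formed a graded series. Kcne2 had the steepest slope, 0.88 ± 0.09 (SE, edgeR adjusted p = 4.9e-05), followed by Cldn2 with 0.63 ± 0.04 (adjusted p = 2.0e-07), Steap1 with 0.51 ± 0.06, Sostdc1 with 0.50 ± 0.06, Otx2 with 0.41 ± 0.08, F5 with 0.40 ± 0.04 and Kl with 0.38 ± 0.05. Over all libraries Kcne2 was thus the gene nearest to proportion with Ttr, on 1, 2, 0 and 0 counts in the 4 libraries poorest in Ttr. The other fitted slopes were smaller. Otx2 had no count in transgene 2 and 6, so the size of its fall there is not measured. Without the 4 libraries Kcne2 was not called, and the slopes of Kl and F5 were steeper than over all libraries. Wdr86, Prlr, Kcnj13, Clic6 and Tmem72 had slopes between 0.28 and 0.35, and Enpp2, Cldn1, Lbp, Col8a1 and Msx1 between 0.15 and 0.22. The call of Otx2 was lost without transgene 2, 5 or 6 (adjusted p up to 0.0855). Slopes of Aqp1 (0.20 ± 0.05, adjusted p = 0.112), Igfbp2 (0.09 ± 0.03, adjusted p = 0.293), Cldn3 (0.04 ± 0.06) and Slc13a4 (0.04 ± 0.03) did not pass. Neighbouring slopes in this order differ by less than their standard errors in most cases, and the order was not tested.

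Cldn3 and Slc13a4 did not go with Ttr in these libraries although they are listed as choroid genes. Slc13a4 held 33.3 CPM in transgene 2 and 19.98 in transgene 6, the libraries with almost no Ttr, against 32.2 CPM as the control median, but 13.4 CPM in control 7, its lowest value. Cldn3 held 1.93 CPM in transgene 6 and 2.26 CPM in control 7, near the top of its range, and 0.546 CPM in transgene 2 and 0.497 CPM in control 3, at the bottom of it. Both genes were thus spread over their range in the libraries poor in Ttr.

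**Figure D4:**
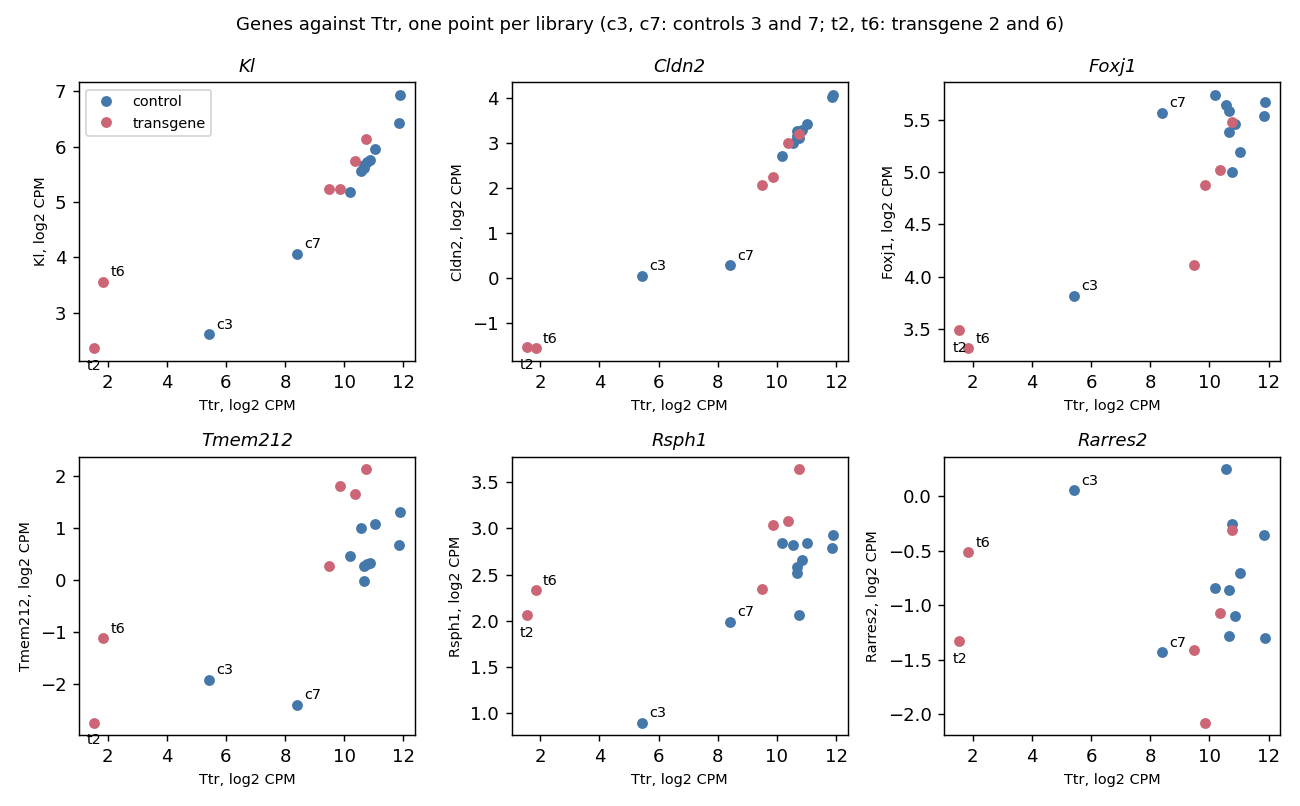
Log2 CPM of Kl, Cldn2, Foxj1, Tmem212, Rsph1 and Rarres2 (vertical axes) against log2 CPM of Ttr (horizontal axis), 1 point per library, controls in blue and transgene libraries in red. Kl and Cldn2 are lowest in the 4 labelled libraries; Foxj1 in control 7 (c7) lies with the Ttr-rich controls, and Tmem212 in control 7 lies with the Ttr-poor libraries.

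Of the ependymal genes, 4 of the 6 ciliary ones rose with Ttr over all libraries. Tmem212 had a slope of 0.52 ± 0.07 (edgeR adjusted p = 0.00109), Ccdc153 of 0.42 ± 0.08 (adjusted p = 0.0179), Foxj1 of 0.19 ± 0.03 (adjusted p = 0.00609) and Rsph1 of 0.15 ± 0.03 (adjusted p = 0.0466). Dynlrb2 (0.24 ± 0.06, adjusted p = 0.0684) and Cfap126 (0.21 ± 0.06, adjusted p = 0.117) had slopes of similar size that did not pass. Rarres2 had a slope of -0.04 ± 0.06 (adjusted p = 0.841). Rarres2 stood at 0.938 CPM in control 3, its second highest control value, and at 0.602 CPM in transgene 6, but at 0.271 CPM in control 7, its lowest control value, and at 0.298 CPM in transgene 2. The call of Rsph1 was lost with 14 of the 17 libraries left out 1 at a time, and that of Ccdc153 without control 3, transgene 2 or transgene 5 (adjusted p up to 0.0869). Those of Foxj1 and Tmem212 held in every such run. With lane and flow cell in the model, these 2 were the only ependymal genes called. RLE scaling and limma-voom each called 3 (Ccdc153, Foxj1 and Tmem212), library size alone 5 and DESeq2 6. Without the 2 libraries farthest from the median of Ttr, only Rsph1 and Tmem212 were called. The share of all features called higher was 0.303% with lane and flow cell, 0.418% with RLE and 0.345% with limma-voom. It was 0.648% with library size alone, 0.951% with DESeq2 and 0.261% without the 2 libraries, so it moved with the setting too.

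Promoter sequence was looked at because several ciliary genes rose with Ttr over all libraries. RefSeq (GRCm38.p6) gave a window from 250 bases before to 50 after the start for 25 of the 34 genes, 20 choroid and 5 ependymal. The core GTTGCC of the site bound by RFX factors, which act with Foxj1 on cilia genes, was searched on both strands. It was found in 12.5% of 32851 windows of this length, a share by window and not by gene. Counted by gene, where any matching window was enough, it was in 2 of the 5 ependymal genes (Ccdc153 and Dynlrb2). It was also in 4 of the 20 choroid genes (Aqp1, Kcne2, Otx2 and Steap1) and in 19 of 32 other motile cilia genes. The stretches of 100 bases that hold it in the ependymal genes are shown 5′ to 3′ on the plus strand, with the match in capitals. They lie at chr9:44240478-44240577 for Ccdc153 and at chr8:116504874-116504973 for Dynlrb2.
Ccdc153: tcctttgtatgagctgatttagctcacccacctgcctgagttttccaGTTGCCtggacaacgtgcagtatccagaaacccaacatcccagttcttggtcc
Dynlrb2: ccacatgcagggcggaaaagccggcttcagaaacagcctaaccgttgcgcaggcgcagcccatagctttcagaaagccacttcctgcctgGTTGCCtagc
The match begins 152 bases before the RefSeq start in Ccdc153 and 51 bases before it in Dynlrb2. The core GGATTA bound by OTX factors was in 7.06% of all windows and in 1 of the 20 choroid genes, Otx2 itself. The core GTAAACA bound by forkhead factors was in 3.65% of all windows and in 1 of the 20 choroid genes, Prlr. A match is a description of these letters and not a site of binding.

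The ciliary genes parted from each other in control 7. In that library Foxj1 had 47.3 CPM, Dynlrb2 1.13 CPM and Cfap126 1.04 CPM, near the control medians of 46.1, 1.13 and 1.21 CPM. Tmem212 and Ccdc153 each had 0.0903 CPM there, which is 2 counts, against control medians of 1.15 and 0.454 CPM. Control 3, in contrast, was the lowest control for Foxj1 (14.0 CPM), Ccdc153 (0.0552), Dynlrb2 (0.110), Cfap126 (0.331) and Rsph1 (1.77).

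The calls on Ttr were also counted in subsets of the libraries. In the 11 controls alone, 14 of 21 choroid genes and 1 of 7 ependymal genes, Rsph1, rose with Ttr, against 0.188% of all features. In the 6 transgene libraries alone, 7 choroid genes and 0 ependymal genes passed by edgeR, against 0.0836% of all features, while 5 ependymal genes had an unadjusted p under 0.05. Without the 4 libraries lowest in Ttr, 9 of 22 choroid genes rose (Kl, Cldn2, F5, Clic6, Tmem72, Sostdc1, Kcnj13, Msx1 and Enpp2) and 0 of 7 ependymal genes, with 3 of the 7 at an unadjusted p under 0.05 by edgeR, against 0.0868% of all features called higher. In those 13 libraries the slope of Kl was 0.88 ± 0.07 (adjusted p = 1.4e-05) and that of F5 0.95 ± 0.08, more than over all libraries. The slope of Foxj1 was 0.24 ± 0.15 (adjusted p = 0.632), that of Tmem212 0.61 ± 0.24 (adjusted p = 0.463) and that of Cfap126 0.67 ± 0.23 (adjusted p = 0.42). The 4 ependymal calls were thus lost in these 13 libraries, with a narrower range of Ttr, although the slopes of Foxj1, Tmem212 and Rsph1 (0.33 ± 0.16) were no smaller than over all libraries, and that of Ccdc153 was 0.27 ± 0.32. Whether ependymal and choroid slopes differ was not tested.

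The slopes were also compared between the groups. For 0 of 19135 features, and so for 0 of the 28 genes, did the slope differ between transgene and control libraries (edgeR interaction term, adjusted p), although 13 of the 28 had an unadjusted p under 0.05. The share of all features under that unadjusted p was not counted. Kl rose by 0.63 per doubling in controls and 0.31 in transgene libraries (adjusted p of the difference = 0.256), and Otx2 by 0.24 and 1.33 (adjusted p = 0.288). Foxj1 had slopes of 0.20 and 0.19 (adjusted p = 1.00).

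With Ttr fitted as a covariate, with a common slope for both groups, 3 ciliary genes and no choroid gene were higher in the transgene libraries, and 0 genes were lower. Transgene 2 and 6 (log2 CPM of Ttr 1.55 and 1.84) lay below every control (lowest 5.44), so the fit extrapolates there. Among all features 38.7% were called, 19.4% higher and 19.3% lower. At an unadjusted p under 0.05 by edgeR 2 genes, Otx2 and Foxj1, were lower, while DESeq2 called Otx2 lower and limma-voom 0. Tmem212 differed by 1.54 ± 0.34 on the log2 scale (edgeR adjusted p = 0.0015), Ccdc153 by 1.01 ± 0.37 (adjusted p = 0.0397) and Rsph1 by 0.71 ± 0.21 (adjusted p = 0.011). Dynlrb2 differed by 0.55 ± 0.32 and Cfap126 by -0.26 ± 0.33, and neither passed. Otx2 stood at -0.94 ± 0.38 (adjusted p = 0.0598) and Foxj1 at -0.42 ± 0.20 (adjusted p = 0.102). The median over the choroid genes moved from -0.59 without Ttr in the model to 0.06 with it, and that over the ciliary genes from 0.16 to 0.63. Without the 4 libraries lowest in Ttr, 6 of 30 genes were higher, the choroid genes F5, Kl, Lbp and Prlr with Tmem212 and Rsph1, and 2995 of 19576 features (15.3%) were higher in that fit.

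Tmem212 was the steadiest of the 3. It passed in each of the 17 fits that left out a library (1.40 to 1.77) and without the 4 libraries lowest in Ttr (1.45 ± 0.32, edgeR adjusted p = 0.0033). It passed also within lane 4 alone (1.81, adjusted p = 0.047) and with lane and flow cell in the model (1.82, adjusted p = 0.0162). These last fits are not separate checks, as both draw the group difference from lane 4. Ccdc153 lost its call in 9 of the 17 fits (adjusted p up to 0.119) and without the 4 libraries (0.75, adjusted p = 0.216), and within lane 4 it stood at 1.30 (adjusted p = 0.0861). Rsph1 lost its call only without transgene 5 among these 17 (adjusted p = 0.0782), and within lane 4 it stood at 0.68 (adjusted p = 0.126). Tmem212 overlaps the small gene Gm26040 and Rsph1 overlaps AC154652.1, and reads of such neighbours cannot be told apart without a stated strand setting.

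**Figure D5:**
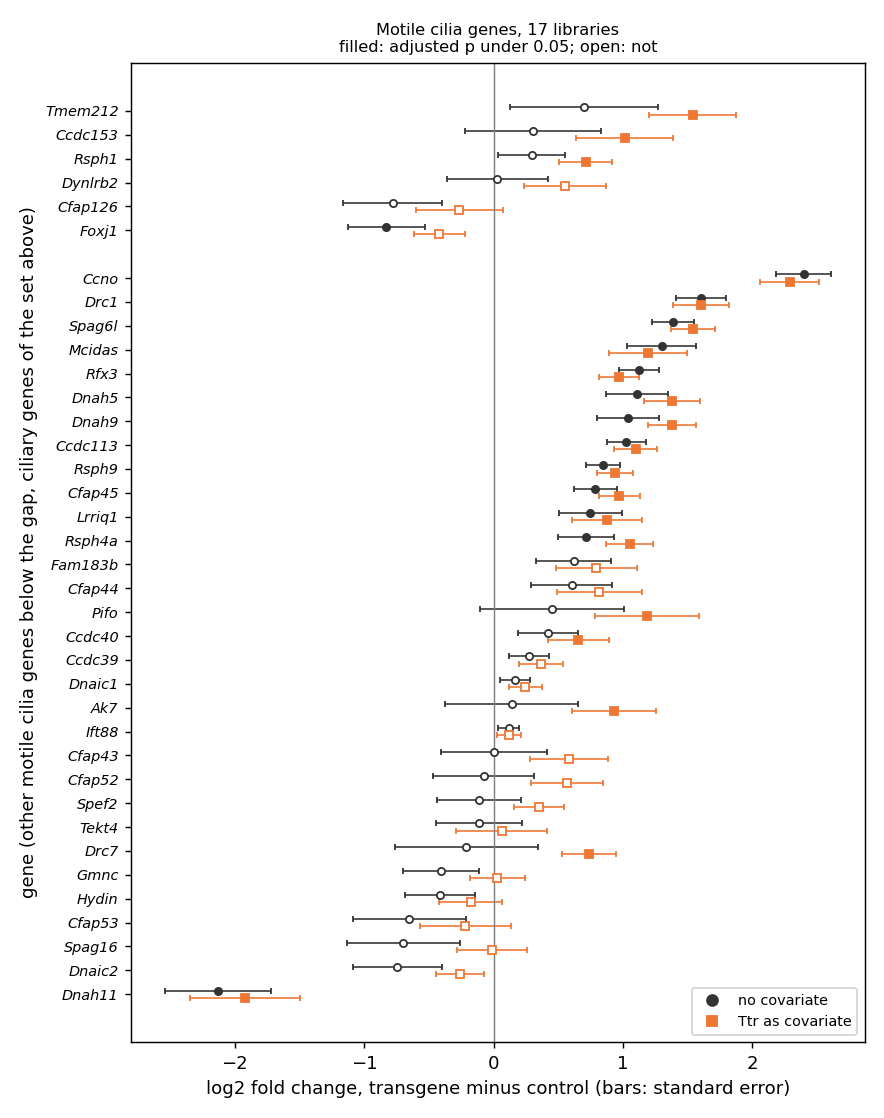
Log2 fold change, transgene minus control, with standard errors (horizontal axis) of the 6 ciliary genes of the set and of 31 other motile cilia genes over 17 libraries, without (circles) and with (squares) Ttr as a covariate; filled marks passed the test. Tmem212 moves from 0.70 to 1.54, Foxj1 from -0.83 to -0.42, and Ccno and Drc1 stay above 1.

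In a wider list of motile cilia genes, 12 of 31 tested (34 listed) rose and 1 fell over all libraries, where 23% of all features rose and 24.4% fell. The differences were above 0 for 21 of the 31, with a median of 0.42 against -0.05 over all features. Within lane 4, 10 rose and 0 fell, where 13.6% of all features rose and 12% fell. Ccno, a cyclin-like factor that helps to make many basal bodies in a cell, rose by 2.39 ± 0.21 (edgeR adjusted p = 1.8e-07) over all libraries and 2.01 ± 0.26 within lane 4. Drc1, a regulator of dynein arms, rose by 1.6 ± 0.19 and by 2.05 ± 0.15, and Spag6l, a central apparatus gene, rose by 1.5 ± 0.20 in lane 4. In transgene 2 and 6, the libraries lowest in Foxj1, Drc1 held 21.001 and 24.5 CPM, Spag6l 8.54 and 11.4 and Ccno 7.45 and 4.39. The other transgene libraries held 19.02 to 22.6, 10.2 to 12.9 and 4.07 to 7.24 CPM. Drc7 of the same list held 0.794 and 1.02 CPM in transgene 2 and 6, against 6.14 to 15.6 in the other transgene libraries. Whether the rises of Ccno, Drc1 and Spag6l reflect ependymal RNA was not tested. Dnah11, an outer dynein arm heavy chain, fell by 2.13 on the log2 scale over all libraries. With Ttr as a covariate, 16 rose and 1 fell, where 19.4% of all features rose. Without the 4 libraries lowest in Ttr and without the covariate, 14 rose and 1 fell, where 21.8% of all features rose.

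On Ttr, 9 of these 31 genes rose, with a median slope of 0.09, where 0.423% of all features rose. Without the 4 libraries lowest in Ttr 1 rose, where 0.0868% of all features rose. The steepest were Drc7 with 0.50 ± 0.04, Pifo with 0.47 ± 0.09 and Ak7 with 0.40 ± 0.06. Of 24 tested genes in a further list of 26 choroid genes, 8 rose with Ttr, and 3 without the 4 libraries, beside the same shares of all features. The 8 were led by the epithelial keratin genes Krt8 (0.67 ± 0.06) and Krt18 (0.55 ± 0.04) and by Mfrp (0.49 ± 0.07). Between the groups, 10 of the 24 fell and 2 rose over all libraries, where 24.4% of all features fell and 23% rose, and 6 fell within lane 4, where 12% of all features fell. The largest falls were those of Cgnl1, a junction protein (log2 -2.12 ± 0.43), the monoamine transporter gene Slc29a4 (-1.56 ± 0.19) and the cation channel gene Trpm3 (-1.44 ± 0.18). In controls 3 and 7, poor in Ttr, Cgnl1 held 0.497 and 3.02 CPM, Slc29a4 42.9 and 81.7 and Trpm3 14.7 and 11.9. Transgene 1, 3, 4 and 5, richer in Ttr, held less: 0.108 to 0.330, 27.0 to 37.0 and 6.53 to 9.33 CPM. Whether these falls reflect choroid RNA was not tested.

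Markers of other cells were set beside these results. On Ttr, no marker of neurons, astrocytes, oligodendrocytes, microglia, endothelium, tanycytes, Hox-expressing hindbrain or telencephalon passed the test. There 1 of 10 meningeal fibroblast genes fell, where 0.423% of all features rose and 0.115% fell. Regional markers did move with the group: the summed level of 11 Hox genes was 14.2 to 295 CPM in controls and 0.0457 to 0.645 CPM in transgene libraries, with Hoxb6, Hoxd3 and Hoxd4 at 0 in the latter. The summed level of 10 telencephalic genes was 9.54 to 263 CPM in controls and 480 to 759 CPM in transgene libraries, and 10 of 10 rose. For this and the counts that follow, 23% of all features rose and 24.4% fell. The 6 astrocyte markers summed to 2675 to 3309 CPM in controls and 1596 to 1812 CPM in transgene libraries, and 5 of 6 fell. The 6 tanycyte markers summed to 103 to 190 CPM and 314 to 382 CPM, and 5 of 5 tested rose. Of 6 oligodendrocyte markers 5 fell and 1 rose, and their sums overlapped (1196 to 4964 CPM in controls and 1053 to 2323 CPM in transgene libraries). The part of these shifts in the differences of Otx2, Foxj1, Slc4a5 and Tmem212 was not tested.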

How the data were processed

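Brain RNA of 17 mouse libraries was sequenced. The authors deposited raw counts per transcript, whole numbers in 68517 rows per library, and reads were placed on mm10 per the submitters' processing notes. No aligner, counting program, strand setting or annotation is named in the sources used here. In each library 5 rows that name no feature (ambiguous reads 40.2% to 43.4%, reads outside features 5.29% to 11.1%) entered neither the library sizes nor the tests, so genes with overlapping transcripts lose reads. Transcript rows were matched to GENCODE M21 (64380 of 64505) and summed per gene. Of the 34 genes, 18 rested on 1 deposited row and 13 overlapped another gene. No 2 libraries of a group agreed within counting noise (chi-square per gene at least 9.97).

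Features were tested with edgeR 4.0.16 in R 4.3.3 (quasi-likelihood F test, TMM, default filter on low counts, Benjamini-Hochberg adjustment over all tested features, threshold 0.05). A prior count of 2 was added for log2 CPM. Fitted were transgene against control libraries (all 17, and those of lane 4), the slope on Ttr log2 CPM with group in the model, and the group difference with Ttr as covariate. Single values used exact permutation tests. Alternatives were scaling, filter, DESeq2 1.42.0, limma-voom 3.58.1, the most counted row per gene, lane and flow cell as a factor, other libraries and other covariates. The genes, the lists and the tests were chosen with earlier results of these data known. Added after seeing the data were the fits without the 4 libraries lowest in Ttr and with Ttr as a covariate in lane 4. So were all alternatives for the group fit with Ttr as a covariate. Besides the 34 genes, the text names up to 3 called genes with the largest change in each of 2 further lists per comparison, and up to 10 genes outside all lists with the smallest p on Ttr (mean log2 CPM of at least 0, no Gm or Rik names). In simulated counts with 200 changed genes, 75% of 2-fold and 43% of 1.5-fold changes were recovered over all libraries (18734 genes, 3.28% false calls). In lane 4, 51% and 8% were recovered (18786 genes, 9.23% false calls). The changed genes were drawn at random from features that were not low, without the wide shared spread of the choroid genes. Far fewer were changed than the 47.4% of features called over all libraries. These rates are thus not the rates for this set.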

Additional observations from a re-analysis of the deposited data

How the results depend on the processing

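Over all libraries, the 2 genes called lower became 4 with library size alone, 4 with DESeq2, 1 with the most counted row per gene, 0 with lane and flow cell in the model, 0 (and 3 higher) with Ttr as a covariate, and 7 (and 1 higher) without the 4 libraries lowest in Ttr. Of all features, 4668 were lower in the main fit, 4611 with DESeq2, 4215 with the most counted row and 3016 with lane and flow cell. With Ttr as a covariate 3702 were lower, and without the 4 libraries 3946. Leaving out 1 library at a time gave 0 to 6 lower (0 without transgene 2, 3 or 6, 6 without transgene 5, 5 without control 3) and 0 higher. Of all features, 3821 to 4640 were then lower. Library size alone moved the median of all features from -0.05 to -0.16 and the calls from 4410 higher and 4668 lower to 3510 and 6361. Within lane 4, the 0 calls became 1 lower with no filter (2095 of 34688 features lower) and 1 higher with Ttr as a covariate (11.7% of features higher). With 1 library left out they were 0 to 1 lower (1 without transgene 5) and 0 higher, and the Ttr difference ran from -0.92 to 0.017, turning without control 8. The difference in the Ttr share was -0.111 percentage points over all libraries and -0.0357 within lane 4.

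Of slopes on Ttr, 21 called genes became 7 in the transgene libraries alone and 9 without the 4 libraries lowest in Ttr, and 17 to 22 with 1 library left out (0 lower throughout). In the runs with 1 library left out, 0.273% to 0.631% of all features were called higher. Rarres2 turned to 0.19 without those 4, and with 1 library left out it ran from -0.0921 to 0.00308 (without control 3) and Cldn3 from -0.00824 (without transgene 2) to 0.134. With Ttr as a covariate, the 3 higher became 1 with lane and flow cell in the model (12.9% of all features higher) and 1 in lane 4 alone (11.7%). They became 5 with the choroid index of 7 genes in place of Ttr (19.7%) and 6 without the 4 libraries (15.3%). The 0 lower became 1 with DESeq2 (3763 of 19136 features lower) and 1 with no filter (3273 of 36207). With 1 library left out, 1 to 4 were higher (1 without transgene 5) and 0 to 1 lower. Of all features, 17.5% to 22.1% were then higher and 2626 to 3698 lower. Of the further lists, the choroid genes falling over all libraries went from 10 to 6 with lane and flow cell in the model, and those rising from 2 to 1 there or with library size alone and to 4 with the most counted row. The cause of these changes was not tested. No paired analysis was possible because the labels give no replicate numbers that the groups share. Genes under about 1 CPM rest on few counts, which limits what could be detected for them.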

Other observations

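The 10 genes outside all lists that went most closely with Ttr (mean log2 CPM of at least 0, smallest p, edgeR with the group in the model) include further genes of cilia. Prr32 had a slope of 0.89 ± 0.06 per doubling of Ttr, with 5.92 CPM in control 6 and 0 in transgene 2 and 6. The axonemal genes Wdr63 (0.72 ± 0.08), Dnah12 (0.41 ± 0.07), Dnali1 (0.37 ± 0.06) and Ttc21a (0.27 ± 0.04), the zinc transporter gene Slc39a4 (0.39 ± 0.06), the endocytosis gene Epn3 (0.28 ± 0.04) and the retinol dehydrogenase gene Rdh5 (0.24 ± 0.03) also rose. Prtn3, a protease of neutrophil precursors, fell with Ttr (-0.34 ± 0.04), with 21.01 CPM in transgene 6, 9.63 in transgene 2 and 8.66 in control 3, while no other library was above 5.76 CPM. Tnnc1, a troponin gene, also fell (-0.18 ± 0.02), with 18.4 CPM in transgene 6 and 9.93 in transgene 2.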
